A study of Homo sapiens with 6 samples.

Results

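YAP1 and WWTR1 (TAZ), their DNA-binding partners TEAD1 and TEAD4, and 5 of their target genes, CTGF (also CCN2), CYR61 (also CCN1), ANKRD1, AMOTL2 and LATS2, were followed through 6 RNA sequencing libraries of human thyroid cancer cell lines. The 9 genes, and the gene lists used further on, were chosen by name with earlier results of these data known. Their counts beside those of all genes are therefore description only. All 9 genes were found among the 58884 gene identifiers of the authors' FPKM table. FPKM scales a gene's reads by its exon length and by the read total of its library. Levels of different genes can thus be set side by side, as far as that length is the length of the transcripts present. BHT-101, an anaplastic carcinoma line, and FTC-133, a follicular carcinoma line, were transfected with siRNA that targets CRABP2 (siCRABP2), or with a control (siControl). 8505C, another anaplastic line, carried either a vector that expresses CRABP2 or its empty counterpart. CRABP2 is a cellular carrier of retinoic acid. Each condition is 1 library, so a difference within a line has no replicate check. For the state of the 8505C cultures as clones or pools, and for the time after transfection, the answer was not given in the sources used here.

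YAP1 and WWTR1 are coactivators without a DNA-binding domain of their own. When the Hippo kinase cascade is active, the kinases LATS1 and LATS2 phosphorylate them and hold them in the cytoplasm. When it is not, they enter the nucleus, bind TEAD factors and raise genes such as CTGF and CYR61, which encode secreted matrix-associated proteins, and ANKRD1, which encodes an ankyrin-repeat protein of the nucleus and the sarcomere. LATS2 and AMOTL2, an angiomotin that holds YAP1 out of the nucleus, are targets that act back on the pathway. The pathway answers to cell density, cell shape and serum, and its output in many epithelial cancers has been tied to growth and invasion. Because control is largely by phosphorylation and location, transcript levels of YAP1 and WWTR1 do not measure their activity.

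The promoters of CTGF and ANKRD1 are shown because these targets were the ones furthest apart between the 2 libraries of 8505C and of FTC-133. The set of RefSeq (GRCh38.p14) promoters used here held 6 of the 9 genes: YAP1, WWTR1, CTGF, ANKRD1, AMOTL2 and LATS2. CYR61, TEAD1 and TEAD4 had no entry in that set, so their promoters were not searched for any word. Each sequence below is the 250 bases before the RefSeq start, read 5′ to 3′ on the gene's strand, which is the minus strand for both genes. The CTGF stretch is chr6:131951373-131951622 and the ANKRD1 stretch chr10:90921088-90921337. Capitals mark GGAATG, the core word that TEAD factors bind, and TGANTCA, a looser form of the AP-1 word that takes any base at N. Each was searched on both strands of the promoter windows.
CTGF: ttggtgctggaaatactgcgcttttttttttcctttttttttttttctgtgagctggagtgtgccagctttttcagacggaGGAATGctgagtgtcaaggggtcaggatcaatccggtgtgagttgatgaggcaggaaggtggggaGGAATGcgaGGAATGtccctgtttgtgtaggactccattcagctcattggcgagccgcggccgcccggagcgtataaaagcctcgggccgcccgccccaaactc
ANKRD1: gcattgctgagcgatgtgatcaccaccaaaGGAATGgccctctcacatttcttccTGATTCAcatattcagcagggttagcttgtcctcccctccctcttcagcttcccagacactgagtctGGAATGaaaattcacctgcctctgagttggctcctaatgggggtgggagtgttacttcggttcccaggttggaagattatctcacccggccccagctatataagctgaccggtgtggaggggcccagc
In the whole RefSeq window, which runs from 250 bases before to 50 bases after the start, CTGF held 3 copies of GGAATG and ANKRD1 held 2. ANKRD1 also held 1 match to TGANTCA, which overlaps neither copy. This match has T at N, so it is a match to the loose word only. The CTGF copies began at positions -169, -104 and -95 from the start and the ANKRD1 copies at -220 and -128. YAP1 and LATS2 held 1 copy each, AMOTL2 held 1 at 1 of its 2 starts, and WWTR1 held none. Of 35116 such windows, 14.0% held the word at least once, 1.37% at least 2 times and 0.128% at least 3 times. A CArG box, the word bound by serum response factor, was in 1.3% of windows and TGANTCA in 7.7%, and no CArG box was in a window of these 6 genes. A match describes the letters of the window and is not a measured binding site.

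The libraries held 22084110 to 27958622 reads, recovered from the FPKM values, and all 9 genes were at or above 1 FPKM in every library. CRABP2 followed the labels, at 11.4 FPKM with siCRABP2 against 27.3 FPKM with siControl in BHT-101, at 0.170 FPKM with siCRABP2 against 8.94 FPKM with siControl in FTC-133, and at 38.0 FPKM with the CRABP2 vector against 0.607 FPKM with the empty vector in 8505C. Of 7 thyroid markers, 2 reached 1 FPKM in FTC-133 (PAX8 and NKX2-1), 1 in 8505C (NKX2-1) and 0 in BHT-101, and TG, SLC5A5, TSHR and FOXE1 stayed under 1 FPKM in every library. Of 4 epithelial markers, the keratins KRT8 and KRT18 were above 18 FPKM in all 6 libraries, but EPCAM was under 1 FPKM in both 8505C libraries and CDH1 under 1 FPKM in those of 8505C and FTC-133. Summed over 4 leukocyte markers, the level was 0.0465 to 0.169 FPKM, and over 3 endothelial markers 0.363 to 3.20 FPKM. Of the endothelial markers, CDH5 was 2.46 FPKM with the CRABP2 vector and 1.99 FPKM with the empty vector in 8505C. It was under 1 FPKM in the other lines. PECAM1 was 1.07 FPKM with siCRABP2 and 0.919 FPKM with siControl in BHT-101. Of 3 fibroblast markers, 2 reached 1 FPKM in BHT-101. LUM was there at 75.5 FPKM with siCRABP2 and 80.2 FPKM with siControl, and PDGFRA at 2.48 FPKM with siCRABP2 and 1.90 FPKM with siControl. DCN was under 1 FPKM in every library. Their part in the results was not tested.

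Levels of the coactivators separated 8505C from the other lines more than any CRABP2 manipulation separated libraries of a line. YAP1 (ENSG00000137693, GRCh38 chromosome 11, 102110461 to 102233423, plus strand) was 13.7 FPKM with siCRABP2 and 11.9 FPKM with siControl in BHT-101. It was 13.7 FPKM with siCRABP2 and 16.7 FPKM with siControl in FTC-133, and 30.3 FPKM with the CRABP2 vector and 33.5 FPKM with the empty vector in 8505C. The ranges of BHT-101 and FTC-133 overlapped, and both lay below that of 8505C. WWTR1 (ENSG00000018408, chromosome 3, 149517235 to 149736714, minus strand) was 7.26 FPKM with siCRABP2 and 7.98 FPKM with siControl in BHT-101, and 10.3 FPKM with siCRABP2 and 11.6 FPKM with siControl in FTC-133. In 8505C it was 24.8 FPKM with the CRABP2 vector and 22.5 FPKM with the empty vector. Its order over the lines was 8505C, FTC-133, BHT-101, with no overlap. YAP1 was 1.22 to 1.89 times WWTR1 per length in the 6 libraries. This order rests on exon lengths of 6311 bases for YAP1 and 8413 for WWTR1. In the 8505C CRABP2 vector library WWTR1 had more reads than YAP1 (4614 against 4226). In such bulk libraries fewer cells with a transcript and less of it per cell cannot be told apart.

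**Figure D1:**
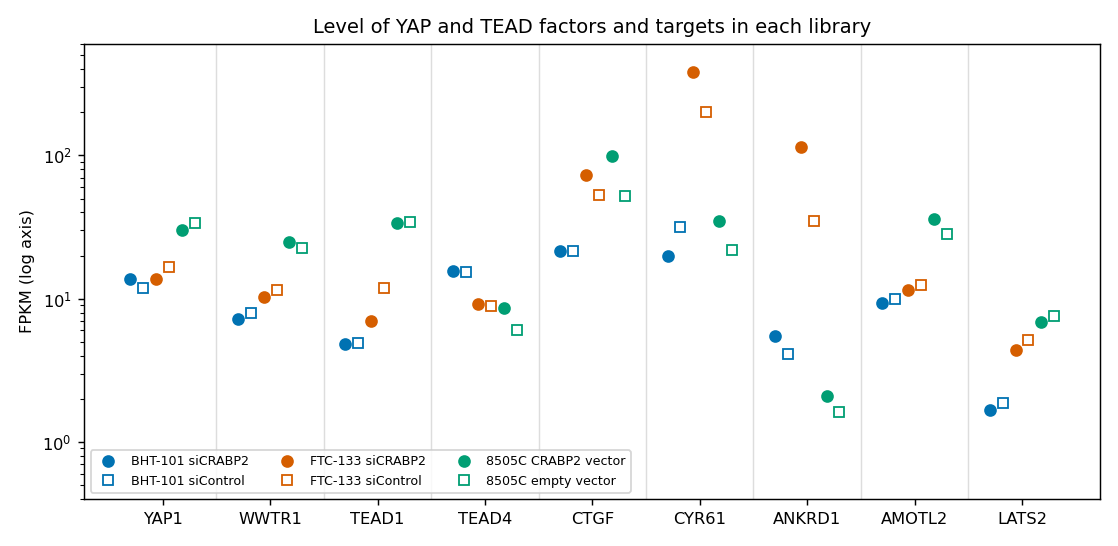
FPKM on a log axis for the 9 genes, with 1 point per library. Filled circles are siCRABP2 or CRABP2 vector libraries and open squares their controls. CYR61 and ANKRD1 stand highest in FTC-133, at 382 and 114 FPKM with siCRABP2, while YAP1, WWTR1, TEAD1, AMOTL2 and LATS2 stand highest in 8505C.

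TEAD1 and TEAD4 stood in opposite orders over the lines. TEAD1 (ENSG00000187079, chromosome 11, 12674591 to 12944483, plus strand), the family member expressed in most tissues, was 4.83 FPKM with siCRABP2 and 4.89 FPKM with siControl in BHT-101. In FTC-133 it was 7.01 FPKM with siCRABP2 and 11.8 FPKM with siControl, and in 8505C it was 33.8 FPKM with the CRABP2 vector and 34.3 FPKM with the empty vector. The 3 lines did not overlap, and 8505C stood at the top. TEAD4 (ENSG00000197905, chromosome 12, 2959330 to 3040673, plus strand), known for its part in the trophectoderm and in muscle, ran in the opposite order, at 15.5 FPKM with siCRABP2 and 15.5 FPKM with siControl in BHT-101. In FTC-133 it was 9.15 FPKM with siCRABP2 and 8.85 FPKM with siControl, and in 8505C 8.58 FPKM with the CRABP2 vector and 6.06 FPKM with the empty vector. The lines again did not overlap, but FTC-133 with siControl (500 reads) and 8505C with the CRABP2 vector (431 reads) were close. The contrast of FTC-133 with 8505C given below did not pass for TEAD4 (limma adjusted p = 0.24), so their order is not settled. TEAD4 was 3.22 and 3.17 times TEAD1 in BHT-101 with siCRABP2 and siControl. In the same order it was 1.31 and 0.749 times TEAD1 in FTC-133, and 0.254 and 0.177 times TEAD1 in 8505C with the CRABP2 and the empty vector. These ratios rest on exon lengths of 2275 bases for TEAD4 and 10703 for TEAD1. In BHT-101 with siControl TEAD4 had fewer reads than TEAD1 (984 against 1462). TEAD1 held 14.4% to 14.6% of the summed FPKM of TEAD1 to TEAD4 in BHT-101. Its share in FTC-133 was 21.7% with siCRABP2 and 30.8% with siControl, and it was 57.4% and 54.4% in 8505C with the CRABP2 and the empty vector.

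**Figure D2:**
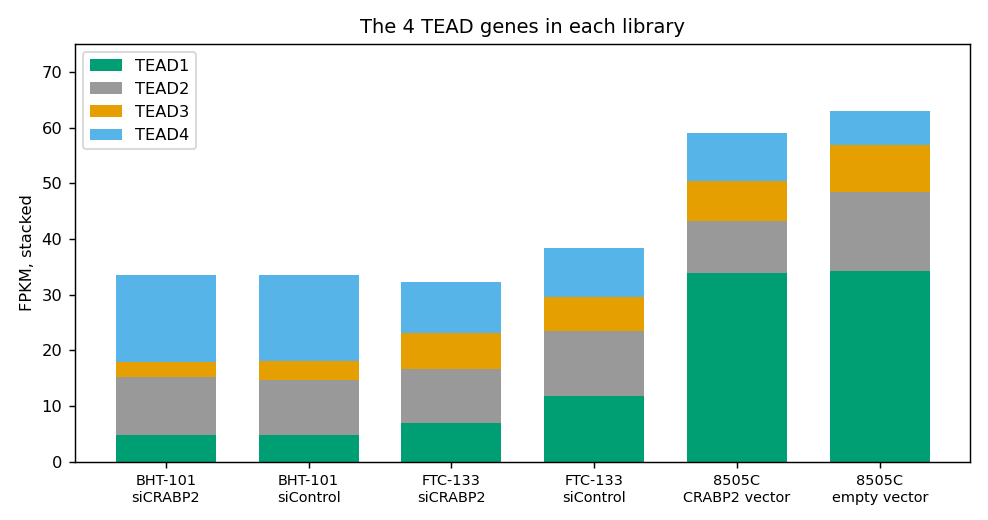
Stacked FPKM of TEAD1, TEAD2, TEAD3 and TEAD4 in each library, with the manipulated library left of its control. TEAD4 is the largest block in BHT-101 and TEAD1 the largest in 8505C, where the summed level is 59.0 and 62.9 FPKM with the CRABP2 and the empty vector, against 32.3 to 38.4 FPKM in the siRNA lines.

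Among targets, CYR61 and ANKRD1 marked FTC-133, whereas the feedback genes AMOTL2 and LATS2 were highest in 8505C. CYR61 (ENSG00000142871, chromosome 1, 85580761 to 85583962, plus strand) was 382 FPKM with siCRABP2 and 202 FPKM with siControl in FTC-133. It was 19.8 FPKM with siCRABP2 and 31.5 FPKM with siControl in BHT-101, and 34.7 FPKM with the CRABP2 vector and 22.0 FPKM with the empty vector in 8505C. BHT-101 and 8505C overlapped, far below FTC-133. ANKRD1 (ENSG00000148677, chromosome 10, 90912096 to 90921276, minus strand) was 114 FPKM with siCRABP2 and 34.6 FPKM with siControl in FTC-133, 5.50 FPKM with siCRABP2 and 4.12 FPKM with siControl in BHT-101, and 2.11 FPKM with the CRABP2 vector and 1.61 FPKM with the empty vector in 8505C. Over the 6 libraries its highest value was 70.4 times its lowest, against 19.3 times for CYR61 and 4.62 times for CTGF. CTGF (ENSG00000118523, chromosome 6, 131948176 to 131951373, minus strand) was 72.6 FPKM with siCRABP2 and 53.3 FPKM with siControl in FTC-133, and 21.4 FPKM with siCRABP2 and 21.6 FPKM with siControl in BHT-101. In 8505C it was 98.8 FPKM with the CRABP2 vector and 51.9 FPKM with the empty vector. FTC-133 and 8505C overlapped, and BHT-101 was below both. Per length, CYR61 was 5.27 and 3.78 times CTGF in FTC-133 with siCRABP2 and siControl, and 0.352 and 0.423 times CTGF in 8505C with the CRABP2 and the empty vector.

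AMOTL2 (ENSG00000114019, chromosome 3, 134355874 to 134375479, minus strand) was 9.40 FPKM with siCRABP2 and 9.96 FPKM with siControl in BHT-101, 11.5 FPKM with siCRABP2 and 12.5 FPKM with siControl in FTC-133, and 35.7 FPKM with the CRABP2 vector and 28.1 FPKM with the empty vector in 8505C. LATS2 (ENSG00000150457, chromosome 13, 20973032 to 21061547, minus strand) was 1.68 FPKM with siCRABP2 and 1.88 FPKM with siControl in BHT-101, 4.35 FPKM with siCRABP2 and 5.15 FPKM with siControl in FTC-133, and 6.87 FPKM with the CRABP2 vector and 7.55 FPKM with the empty vector in 8505C. In both genes the order was 8505C, FTC-133, BHT-101 with no overlap, as for WWTR1 and TEAD1. Exons of antisense genes cover 9.97% of the YAP1, 9.45% of the WWTR1 and 8.34% of the CTGF exon bases, and their own levels stayed at or below 0.904 FPKM.

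The lines were compared with limma on log2(FPKM + 1), with the CRABP2 arm (lower: siCRABP2 or empty vector; higher: siControl or CRABP2 vector) as a covariate and the 2 libraries of a line as its replicates. Such p-values measure the spread between these libraries only, and siRNA or vector cannot be told apart from line where 8505C is involved. In BHT-101 against 8505C, 7 of the 9 genes passed an adjusted p under 0.05, 1 higher and 6 lower in BHT-101. Of all genes 61.2% passed, 30.7% higher and 30.5% lower, a background so high that the count alone says little. TEAD1 was lower in BHT-101 by a log2 difference of -2.58 (SE 0.22, limma adjusted p = 0.00012), CTGF by -1.69 (SE 0.31, limma adjusted p = 0.0027) and YAP1 by -1.25 (SE 0.19, limma adjusted p = 0.0011). TEAD4 was higher in BHT-101, at 1.01 (SE 0.19, limma adjusted p = 0.0033). The same contrast gave -0.14 (SE 0.38, limma adjusted p = 0.76) for CYR61 and 1.02 (SE 0.40, limma adjusted p = 0.062) for ANKRD1, which passed with a pseudocount of 0.1 (limma adjusted p = 0.039).

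FTC-133 against 8505C gave 7 of 9 genes past the threshold, 2 higher and 5 lower in FTC-133, against 58.0% of all genes (33.7% higher, 24.2% lower). ANKRD1 was higher in FTC-133 by 4.49 (SE 0.40, limma adjusted p = 0.00014) and CYR61 by 3.28 (SE 0.38, limma adjusted p = 0.00040). YAP1, WWTR1, TEAD1, AMOTL2 and LATS2 were lower in FTC-133, by -0.52 for LATS2 to -1.79 for TEAD1, and the LATS2 call was lost without a filter on low values (limma adjusted p = 0.078). CTGF differed by -0.20 (SE 0.31, limma adjusted p = 0.59) and TEAD4 by 0.28 (SE 0.19, limma adjusted p = 0.24). Of all genes 3923 were called higher and 2817 lower in FTC-133, and 3195 and 3581 after quantile normalization, which moved the median of all genes from 0.12 to -0.07. No gene of the 9 changed direction with it.

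In BHT-101 against FTC-133, 6 of 9 genes passed, 1 higher and 5 lower in BHT-101, against 41.9% of all genes (15.2% higher, 26.7% lower). ANKRD1 and CYR61 were lower in BHT-101 by log2 differences of -3.47 (SE 0.40) and -3.42 (SE 0.38), with limma adjusted p = 0.00081 and 0.00063. CTGF was lower by -1.49 (SE 0.31, limma adjusted p = 0.0081) and LATS2 by -1.05 (SE 0.18, limma adjusted p = 0.0037). TEAD1 was lower by -0.79 (SE 0.22, limma adjusted p = 0.024) and TEAD4 higher by 0.72 (SE 0.19, limma adjusted p = 0.021). The calls of CTGF, TEAD1 and TEAD4 were lost without a filter on low values (limma adjusted p = 0.069, 0.094 and 0.065), and that of TEAD1 also after quantile normalization (limma adjusted p = 0.053). YAP1 (-0.23), WWTR1 (-0.47) and AMOTL2 (-0.28) did not pass, beside a median over all genes of -0.17. Over all genes 1763 were called higher and 3105 lower in BHT-101, and 2143 and 2383 after quantile normalization, with the median at -0.04.

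**Figure D3:**
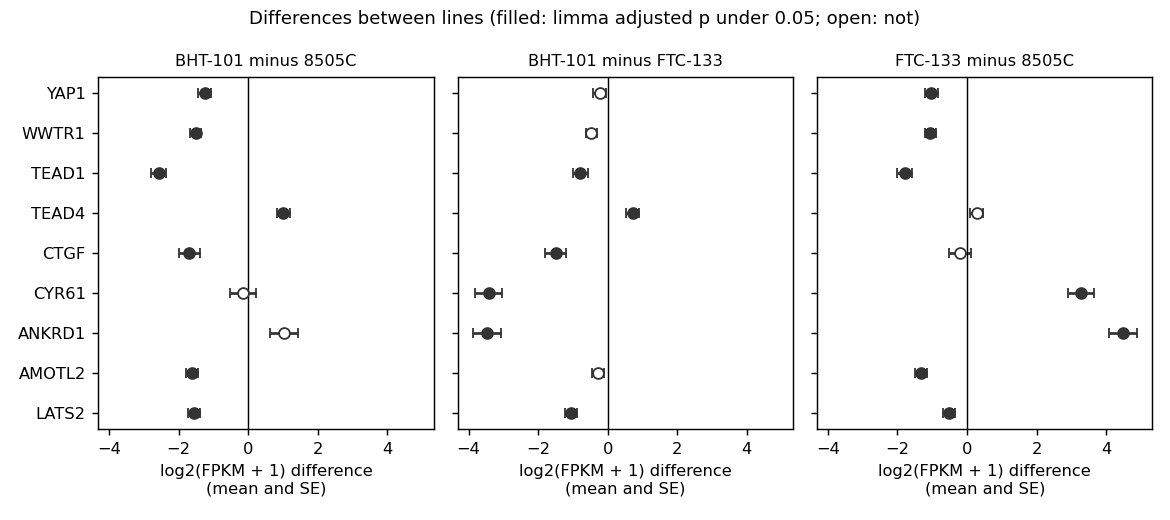
Log2(FPKM + 1) difference between lines for each gene, with its SE, from the limma fit over 6 libraries. Filled points have an adjusted p under 0.05. ANKRD1 and CYR61 lie far from 0 in both contrasts with FTC-133, and TEAD4 lies on the opposite side from TEAD1 in all 3.

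Most Hippo kinases and scaffolds were also lower in the other lines than in 8505C. Of 14, 10 were lower and 0 higher in BHT-101 than in 8505C, against 30.5% lower and 30.7% higher over all genes, and the median difference was -1.20 beside -0.005 over all genes. STK4, the MST1 kinase upstream of LATS, was lower by -1.75 (SE 0.16, limma adjusted p = 0.00016). FTC-133 against 8505C gave 9 of 14 lower and 2 higher, against 24.2% lower and 33.7% higher over all genes, with a median of -0.82 beside 0.12. The higher ones were TAOK2, a kinase upstream of MST, and NF2, the membrane scaffold Merlin, at 1.63 (SE 0.27, limma adjusted p = 0.0021). Among 7 tested partners of YAP1 and TEAD, 3 were lower and 1 higher in BHT-101 than in 8505C (median -0.27). In FTC-133 against 8505C, 4 were lower and 0 higher (median -0.58). The shares over all genes are those given above. AMOTL1, an angiomotin related to AMOTL2, was lower than in 8505C by -2.85 in BHT-101 (SE 0.17, limma adjusted p = 3.4e-05) and by -2.59 in FTC-133 (SE 0.17, limma adjusted p = 4.7e-05). VGLL3, a TEAD cofactor, was listed at 0 FPKM with siCRABP2 and at 0.00316 FPKM, a single read, with siControl in FTC-133, against 21.3 FPKM with the CRABP2 vector and 13.6 FPKM with the empty vector in 8505C. Of 16 tested further target genes, 9 were lower and 2 higher in BHT-101 than in 8505C, against 30.5% lower and 30.7% higher over all genes (median -0.94). In FTC-133 against 8505C, 6 were lower and 2 higher, against 24.2% lower and 33.7% higher over all genes (median -0.36). The receptor kinase AXL was among those lower in BHT-101 than in 8505C, at -2.03 (SE 0.17, limma adjusted p = 0.00011).

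Within FTC-133, where CRABP2 was lowest after the siRNA, the genes furthest apart were ANKRD1, CYR61, TEAD1 and CTGF. ANKRD1, CYR61 and CTGF were all higher in the siCRABP2 library, while TEAD1 and YAP1 were lower. ANKRD1 had 6118 reads with siCRABP2 and 1702 with siControl, an FPKM ratio of 3.28 (95% exact counting interval 3.11 to 3.47). Its difference of 1.69 on the log2(FPKM + 1) scale was the only one of the 9 to reach 1, the size used here to call a gene in 2 single libraries, and 4.71% of measured genes reached it, 2.36% higher and 2.35% lower. It ranked 67 from the top of 12832 measured genes. CYR61 had 25393 reads with siCRABP2 and 12231 reads with siControl, a ratio of 1.90 (1.86 to 1.94) and a log2 difference of 0.92. CTGF had 4612 reads with siCRABP2 and 3093 reads with siControl, a ratio of 1.36 (1.30 to 1.43). These intervals cover counting error only and compare libraries, since reads without molecular tags are not independent molecules.

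On the side of the factors in FTC-133, TEAD1 had a ratio of 0.593 (0.560 to 0.627) between siCRABP2 and siControl, a log2 difference of -0.68. YAP1 was at 0.818 (0.773 to 0.865), WWTR1 at 0.888 (0.838 to 0.940), LATS2 at 0.844 (0.759 to 0.940) and AMOTL2 at 0.921 (0.864 to 0.983), whereas the interval of TEAD4 spanned 1. At the deposited scaling, the intervals of ANKRD1, CYR61 and CTGF lay above 1. Those of TEAD1, YAP1, WWTR1, LATS2 and AMOTL2 lay below 1. The share of all measured genes with an interval off 1 was not computed, so no count is read from these intervals. The median difference of the 9 was -0.11, beside -0.04 over all measured genes. NF2 had a ratio of 0.567 (0.532 to 0.604) between the same libraries.

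**Figure D4:**
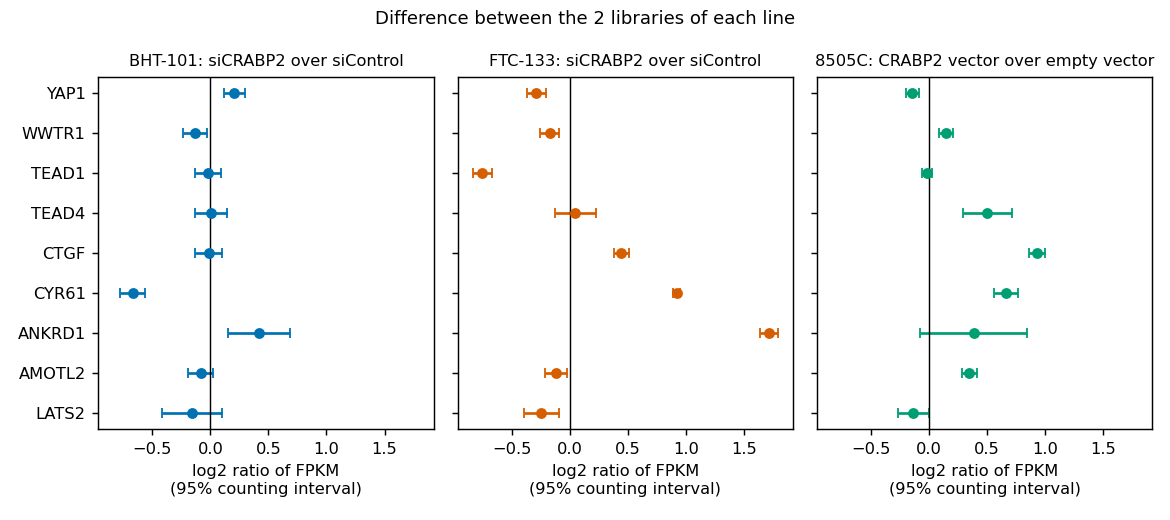
Log2 ratio of FPKM between the manipulated library and its control in each line, with the 95% counting interval of the recovered reads. ANKRD1, CYR61 and CTGF lie right of 0 in FTC-133, CTGF and CYR61 lie right of 0 in 8505C, and CYR61 lies left of 0 in BHT-101.

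Further YAP targets split in FTC-133. Among the 16 that were measured, 10 lay above 0 against 6 under it (median 0.08), while 46.1% of all measured genes lay above 0. In this list 1 gene reached a log2 difference of 1, near the 4.71% of all measured genes that did. It was F3, tissue factor, the cell-surface starter of coagulation, at 73.5 FPKM with siCRABP2 and 20.8 FPKM with siControl (1.77). GADD45A, a stress and DNA damage gene, was 64.7 FPKM with siCRABP2 and 32.9 FPKM with siControl (0.95), and IGFBP3, which binds insulin-like growth factors, was 27.0 FPKM with siCRABP2 and 15.8 FPKM with siControl (0.73). FJX1, a secreted target, was 6.34 FPKM with siCRABP2 and 10.8 FPKM with siControl (-0.68). CTGF and CYR61 are also serum-induced genes, and other immediate early genes stood the other way between the same libraries. EGR1 was 3.31 FPKM with siCRABP2 and 27.7 FPKM with siControl, FOS was 4.63 FPKM with siCRABP2 and 32.0 FPKM with siControl, and all 5 measured members of that list were below 0. The fibroblast marker LUM was 6.53 FPKM with siCRABP2 and 13.2 FPKM with siControl, and PDGFRA and DCN were under 1 FPKM in both. The part of these genes in the result was not tested.

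In BHT-101 CYR61 and ANKRD1 lay on opposite sides of their controls, and CTGF was nearly level. CYR61 was lower with siCRABP2, with 1080 reads against 2149 with siControl, a ratio of 0.629 (0.584 to 0.677) and a log2 difference of -0.64 that ranked 128 from the bottom of 12055 measured genes. ANKRD1 was higher, with 243 reads with siCRABP2 and 228 reads with siControl and a ratio of 1.33 (1.11 to 1.61), from low levels. YAP1 had a ratio of 1.15 (1.08 to 1.23) and WWTR1 of 0.911 (0.849 to 0.977). The intervals of CTGF, TEAD1, TEAD4, AMOTL2 and LATS2 spanned 1, and for CTGF the interval ran from 0.914 to 1.07. None of the 9 was called by size, where 1.13% of measured genes were (0.589% higher, 0.539% lower). CRABP2 remained at 11.4 FPKM here, above the 8.94 FPKM of the FTC-133 siControl library.

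The further targets in BHT-101 had 8 genes above and 7 below 0 (median 0.01), where 53.3% of all measured genes lay above 0, and none was called by size against 1.13% of all. IGFBP3 was 8.59 FPKM with siCRABP2 and 4.25 FPKM with siControl (0.87), and F3 was 2.00 FPKM with siCRABP2 and 2.71 FPKM with siControl (-0.31). Immediate early genes were lower together with CYR61: JUN was 37.9 FPKM with siCRABP2 and 59.5 FPKM with siControl, FOS 12.9 FPKM with siCRABP2 and 21.9 FPKM with siControl, EGR1 22.3 FPKM with siCRABP2 and 29.2 FPKM with siControl and IER2 28.1 FPKM with siCRABP2 and 34.8 FPKM with siControl, with a median difference of -0.51. Their part in the CYR61 value was not tested.

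In 8505C the CRABP2 vector went with higher CTGF and CYR61. CTGF had 5099 reads with the CRABP2 vector and 2775 with the empty vector, a ratio of 1.90 (1.81 to 1.99) and a log2 difference of 0.91, 279 from the top of 11731 measured genes. CYR61 had 1873 reads with the CRABP2 vector and 1226 reads with the empty vector, a ratio of 1.58 (1.47 to 1.70). AMOTL2 had a ratio of 1.27 (1.22 to 1.33), TEAD4 of 1.42 (1.22 to 1.64) and WWTR1 of 1.10 (1.06 to 1.15). YAP1 lay at 0.905 (0.868 to 0.944) and LATS2 at 0.911 (0.830 to 0.9995), just under 1, while ANKRD1 (92 reads with the CRABP2 vector and 73 reads with the empty vector) and TEAD1 had intervals that spanned 1. None of the 9 was called by size, against 3.71% of measured genes (1.85% higher, 1.86% lower), and their median difference was 0.25 beside 0.02 over all measured genes.

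Around these genes in 8505C, 6 of 16 measured further targets were above and 10 below 0 (median -0.14), where 52.8% of all measured genes lay above 0, and 2 were called higher against 1.85% of all. CCDC80, a matrix protein, was 5.46 FPKM with the CRABP2 vector and 1.88 FPKM with the empty vector (1.17), and FJX1 was 16.9 FPKM with the CRABP2 vector and 7.61 FPKM with the empty vector (1.06). GADD45A was 15.9 FPKM with the CRABP2 vector and 8.50 FPKM with the empty vector (0.83) and IGFBP3 81.3 FPKM with the CRABP2 vector and 129 FPKM with the empty vector (-0.66). WWC1, the scaffold KIBRA that activates LATS kinases, was 6.02 FPKM with the CRABP2 vector and 2.68 FPKM with the empty vector (0.93), and TEAD2 was 9.31 FPKM with the CRABP2 vector and 14.1 FPKM with the empty vector (-0.55). JUN, at 25.2 FPKM with the CRABP2 vector and 13.1 FPKM with the empty vector, and IER2, at 21.1 FPKM with the CRABP2 vector and 13.8 FPKM with the empty vector, were higher with CTGF and CYR61, and EGR1 was 25.9 FPKM with the CRABP2 vector and 30.1 FPKM with the empty vector. KRT8 was 76.3 FPKM with the CRABP2 vector and 45.8 FPKM with the empty vector, and KRT18 was 158 FPKM with the CRABP2 vector and 102 FPKM with the empty vector. The part of the immediate early genes and the keratins in the result was not tested.

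The kinases and scaffolds upstream of YAP1 had no call by size in any line, where 1.13% of measured genes were called in BHT-101, 4.71% in FTC-133 and 3.71% in 8505C, so that a list of this size would hold few or none at those shares. They had 7 genes above and 6 below 0 in BHT-101 (median 0.02), 8 above and 6 below in FTC-133 (median 0.05), and 5 above and 9 below in 8505C (median -0.07). In FTC-133 NF2 (-0.75), TAOK2 (-0.43) and WWC1 (-0.35) were lower with siCRABP2. SAV1, the adaptor of the MST kinases, was higher there, at 11.1 FPKM with siCRABP2 and 8.02 FPKM with siControl (0.43). FRMD6, a membrane-linked activator of the cascade, was 13.5 FPKM with the CRABP2 vector and 8.54 FPKM with the empty vector in 8505C (0.61). In the same line TAOK1 (-0.49) and NF2 (-0.40) were lower with the CRABP2 vector. The partners, 6 or 7 measured genes in a line, also had no call, which those shares give as well for so few genes, with medians of 0.01 in BHT-101, -0.09 in FTC-133 and -0.17 in 8505C. AJUBA, a LIM protein that inhibits LATS kinases, was 20.2 FPKM with siCRABP2 and 15.8 FPKM with siControl in FTC-133 (0.34).

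**Figure D5:**
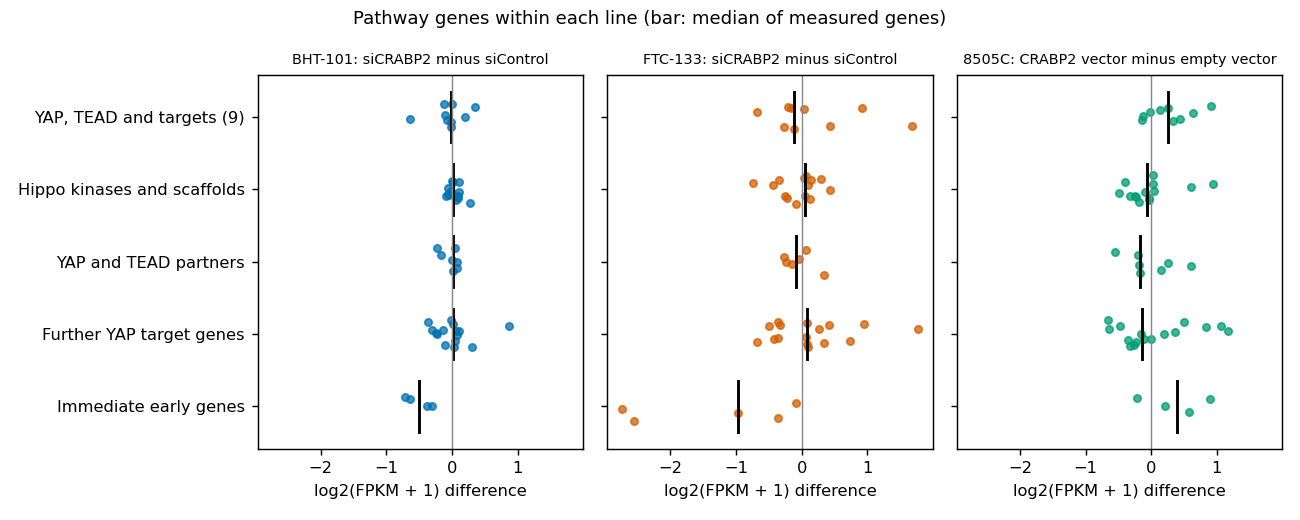
Differences on the log2(FPKM + 1) scale within each line, with 1 point per measured gene and a bar at the median of each list. The immediate early genes lie below 0 in the siRNA lines (medians of -0.51 in BHT-101 and -0.97 in FTC-133), and the spread of the targets is wider in FTC-133 and 8505C than in BHT-101.

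Over lines, none of the 9 genes passed. With the cell line as a block, limma over the 4 siRNA libraries called 0 of 12953 genes at an adjusted p under 0.05, or 0.0%, with 314 higher and 225 lower at an unadjusted p under 0.05. ANKRD1 was higher with siCRABP2 in 2 of 2 lines, at 1.01 (SE 0.31, limma adjusted p = 0.87). CYR61 averaged 0.14 (SE 0.35, limma adjusted p = 0.95), with its lines on opposite sides of 0, and TEAD1 -0.35 (SE 0.21, limma adjusted p = 0.87). Over all 6 libraries, the lower minus the higher CRABP2 arm, limma called 0 of 11628 genes (0.0%), with 193 and 179 at an unadjusted p under 0.05. CTGF was at -0.16 (SE 0.25, limma adjusted p = 0.9995), higher in the lower arm of FTC-133 and lower in that of 8505C and, by -0.01, of BHT-101. The fits have 1 and 2 residual degrees of freedom.

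Genes with the most similar profiles were found by the root mean square distance of log2(FPKM + 1), centred per gene, over the 6 libraries and 8623 protein-coding genes that reached 5 FPKM. For ANKRD1 they included GREM1, a BMP antagonist (distance 0.37), and RGS1, a regulator of G protein signalling (0.40). For CYR61 they were LCP1, an actin-bundling protein of blood cells (0.25), the cancer-testis gene CT83 (0.28) and PQLC2L (0.28), and for CTGF the adenosine receptor ADORA2B (0.12), DMAC1 (0.14) and the BMP antagonist NOG (0.15). Among the 9 genes, CYR61 was 28 in the order from ANKRD1 and ANKRD1 116 in the order from CYR61, while CTGF stood at 2526 from CYR61. LATS2 was nearest to CTGF, 216 in its order. Outside FTC-133, CT83 was at 0 FPKM and LCP1 and PQLC2L stayed under 1 FPKM, against 19.8 to 34.7 FPKM for CYR61. GREM1 and RGS1 in 8505C, and NOG in BHT-101, were also under 1 FPKM. The scale understates differences at such levels, so a short distance does not mean a like level in every line. These orders rest on 6 libraries of 3 lines and carry no test.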

How the data were processed

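The authors deposited FPKM values for 6 libraries, 1 per condition. FastQC, Trimmomatic 0.38 and featureCounts 2.0.0 on GRCh38 are named in the submitters' processing notes. For aligner, annotation release and strand setting the entry was not given in the sources used here. Reads of antisense partners therefore cannot be told apart. Names, exon lengths and positions came from GENCODE release 29 (GRCh38). Depth was recovered because FPKM times exon length fell on whole multiples of 1 step per library: 74.8% of 33848 genes above 0 gave whole reads (tolerance 0.001) at that release's length, as did 3 of the 9 genes (WWTR1, ANKRD1 and AMOTL2). Reads of the other 6 rest on the nearest length that gave whole reads (tolerance 0.01). Values were analysed as log2(FPKM + 1), which understates differences of low genes. A gene was measured in a line at 1 FPKM or more in either library and called by size at a log2 difference of 1. With 1 library a group, no test was made within a line, and 95% exact (Clopper-Pearson) intervals of read ratios cover counting error. Fits over lines used limma (version 3.58.1, in R version 4.3.3), allowing the variance to follow the mean, on genes at 1 FPKM in 2 of 4 or 3 of 6 libraries, with Benjamini-Hochberg adjustment, after a check on simulated data. Groups come from the titles and pairing from the cell line. Beside the 9 genes, CRABP2 and the nearest profiles, up to 4 members of a list with the largest difference in a line were named by rule. Markers, STK4, AMOTL1 and AXL, and TAOK2 and NF2 in the line contrast, are mentioned because of what their values showed. The 9 genes and all lists were chosen with earlier results of these data known. A marker and a nearest profile are not reported here.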

Additional observations from a re-analysis of the deposited data

Results flagged for a closer look

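The knockdown difference of CYR61 ran opposite ways in the siRNA lines, at 0.92 in FTC-133 and -0.64 in BHT-101 on the log2(FPKM + 1) scale, a gap of 1.56, with each read ratio beyond counting error. YAP1 also ran opposite ways, at -0.27 in FTC-133 and 0.19 in BHT-101, a gap of -0.46. With 1 library per condition these differences between lines were not tested.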

How the results depend on the processing

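Within a line, the number of the 9 genes called by size (0 in BHT-101, 1 in FTC-133 and 0 in 8505C) was the same under a pseudocount of 0.1, quantile normalization, median-ratio scaling, a correction for GC content and gene length, and a minimum of 5 FPKM. Over these settings ANKRD1 in FTC-133 ran from 1.63 to 1.76, CYR61 in FTC-133 from 0.81 to 0.99, CYR61 in BHT-101 from -0.67 to -0.63 and CTGF in 8505C from 0.80 to 0.93. AMOTL2 in FTC-133 was -0.11 as deposited, -0.04 after median-ratio scaling and -0.02 after the GC content and length correction. Its read ratio below 1 therefore depends on the processing. ANKRD1 in 8505C ran from 0.07 to 0.36, and only TEAD1 in 8505C (-0.08 to 0.05) and TEAD4 in BHT-101 (-0.01 to 0.04) changed sign. A pseudocount of 0.1 raised the measured genes called by size to 302 in BHT-101, 1278 in FTC-133 and 895 in 8505C, against 136, 605 and 435, and the minimum of 5 FPKM left 34, 323 and 208 of fewer genes. The fits over lines called 0 genes under each setting, including no replicate block (cell line dropped, 0 genes in both fits), except when a line was left out. Leave-one-out fits of the lower against the higher CRABP2 arm called 0 to 10 genes: 1 without BHT-101 (CRABP2), 10 without FTC-133 and 0 without 8505C, none of them among the 9. In that fit, leaving out 1 line at a time gave -0.46 (without FTC-133) to 0.21 (without 8505C) for CTGF, -0.64 (without FTC-133) to 0.14 (without 8505C or BHT-101) for CYR61, -0.15 (without 8505C) to 0.0081 (without FTC-133) for LATS2, -0.35 (without 8505C) to 0.0016 (without FTC-133) for TEAD1, -0.22 (without FTC-133) to 0.025 (without 8505C) for TEAD4, and -0.066 (without BHT-101) to 0.16 (without FTC-133) for YAP1, and none of these passed. ANKRD1 kept its sign but was 0.048 without FTC-133, against 0.59 with all lines. Between lines, 101 of 108 values for the 9 genes kept direction and side of the threshold, 5 lost their call and 2 gained one, with no change of direction. WWTR1 in BHT-101 against FTC-133 passed without the arm covariate (limma adjusted p = 0.040). The cause of these moves was not tested. Depth limits ANKRD1 in 8505C most, at 92 and 73 reads.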
